A study of Mus musculus with 6 samples.

Results

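The sarcomeric myosin heavy chains were followed as 8 genes, *Myh4*, *Myh1*, *Myh2*, *Myh7*, *Myh3*, *Myh8*, *Myh7b* and *Myh6*, among the 20632 genes of a single expression table. The genes were taken by name, with earlier results of these data known, and all 8 were present in the table and passed the filter on low counts. RNA came from the pooled muscles of the hind limb (tibialis anterior, extensor digitorum longus, gastrocnemius, soleus and quadriceps) of 3-month-old, unexercised C57BL/6 mice, so each value is an average over fast and slow muscles. The 3 Baf155 WT mice were homozygous for floxed Baf155 and carried no Cre. In the 3 Baf155 ΔMF mice the same floxed alleles were combined with an MCK-Cre transgene, whose muscle creatine kinase promoter acts in differentiated skeletal and cardiac muscle fibers and not in the other cells of the tissue. Each mouse gave 1 total RNA library.

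Myosin heavy chain is the motor of the thick filament, and the isoform that a fiber makes sets how fast it contracts. In adult limb muscle of the mouse, MyHC1 from *Myh7* marks slow oxidative fibers, MyHC2a from *Myh2* fast oxidative fibers, MyHC2x from *Myh1* fast fibers of intermediate kind, and MyHC2b from *Myh4* the fastest, glycolytic fibers. *Myh3* and *Myh8* encode the embryonic and perinatal heavy chains, which are replaced after birth and return in regenerating fibers. *Myh6* is the alpha chain of the heart, and *Myh7b* is an ancient slow-type chain expressed at low level. Baf155, the product of *Smarcc1*, is a core subunit of the SWI/SNF chromatin remodeling complex. The study asked whether loss of Baf155 in fibers was accompanied by a change of fiber type. By immunostaining and RT-qPCR of tibialis anterior, the study reported comparable fiber types in both genotypes. Those results cover a single muscle, whereas the values here are from RNA of pooled muscles.

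Total counts per mouse were between 8426022 and 12469335. Values are given in CPM, counts per 1000000 counts of a library whose size was scaled by the TMM method, and 3 counts correspond to 0.230 to 0.351 CPM. *Smarcc1* was measured at 23.4, 19.5 and 17.0 CPM in Baf155 WT mice 1, 2 and 3 and at 7.05, 6.54 and 7.72 CPM in Baf155 ΔMF mice 1, 2 and 3. The targeted gene was thus lower in every Baf155 ΔMF mouse (log2 fold change -1.49, SE 0.15, adjusted p = 0.00907 by the edgeR quasi-likelihood test). The muscle fiber genes *Acta1*, *Ckm*, *Mb*, *Ttn* and *Des* summed to 97358 to 134388 CPM, whereas the heart genes *Nppa*, *Nppb*, *Myl7*, *Tnni3* and *Mybpc3* summed to 0.178 to 1.07 CPM, with *Nppb* at 0 in all 6 mice. The sample titles begin with MS13, MS14 or MS15, which the labels do not explain. Baf155 WT mouse 1 and Baf155 ΔMF mice 1 and 2 share MS13, the other Baf155 WT mice carry MS15 and Baf155 ΔMF mouse 3 carries MS14. On the first principal component (43.3% of the variance), Baf155 WT mouse 1 lay at -13.4, beside the MS13 Baf155 ΔMF mice at -17.1 and -15.4, Baf155 ΔMF mouse 3 at -1.56 and the MS15 Baf155 WT mice at 25.0 and 22.5.

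Most of the genes lie in 2 clusters. In GRCm38 with the GENCODE M21 annotation, *Myh3*, *Myh2*, *Myh1*, *Myh4* and *Myh8* follow each other on the plus strand of chromosome 11, with the extraocular chain *Myh13* at the end, over 293.3 kb (chr11:67078300-67371586). *Myh6* and *Myh7* are neighbors on the minus strand of chromosome 14, within 52.7 kb (chr14:54941921-54994626). *Myh7b* stands alone at chr2:155611212-155634307 on the plus strand. The coding sequences are between 5805 and 5826 bases long.

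The RefSeq promoter sequences of 4 fast and perinatal genes of the cluster are printed because they share a stretch that no other promoter holds. Each line runs 5′ to 3′ from 250 bases before to 50 bases after the annotated start (GRCm38.p6, plus strand). Capitals mark the longest run common to the 4 promoters and, where present, the letters TATAAAA.
*Myh4*, chr11:67237562-67237861: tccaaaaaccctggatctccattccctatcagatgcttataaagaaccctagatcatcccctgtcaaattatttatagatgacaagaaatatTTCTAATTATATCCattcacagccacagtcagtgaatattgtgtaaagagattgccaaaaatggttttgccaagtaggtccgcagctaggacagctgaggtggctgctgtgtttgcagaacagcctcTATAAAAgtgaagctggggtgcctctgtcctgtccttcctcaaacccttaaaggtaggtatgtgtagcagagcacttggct
*Myh1*, chr11:67199852-67200151: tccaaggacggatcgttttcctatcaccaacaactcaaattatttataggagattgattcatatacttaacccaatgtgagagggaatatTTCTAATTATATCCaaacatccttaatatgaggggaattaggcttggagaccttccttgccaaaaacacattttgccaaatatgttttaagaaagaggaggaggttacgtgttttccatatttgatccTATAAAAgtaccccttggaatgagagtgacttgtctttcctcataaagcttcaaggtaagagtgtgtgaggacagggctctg
*Myh2*, chr11:67170777-67171076: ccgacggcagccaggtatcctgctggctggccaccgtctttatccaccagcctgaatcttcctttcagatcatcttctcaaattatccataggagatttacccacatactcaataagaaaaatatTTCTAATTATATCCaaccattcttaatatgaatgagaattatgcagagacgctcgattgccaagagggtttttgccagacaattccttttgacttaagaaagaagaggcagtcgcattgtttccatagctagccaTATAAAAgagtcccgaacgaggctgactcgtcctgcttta
*Myh8*, chr11:67276874-67277173: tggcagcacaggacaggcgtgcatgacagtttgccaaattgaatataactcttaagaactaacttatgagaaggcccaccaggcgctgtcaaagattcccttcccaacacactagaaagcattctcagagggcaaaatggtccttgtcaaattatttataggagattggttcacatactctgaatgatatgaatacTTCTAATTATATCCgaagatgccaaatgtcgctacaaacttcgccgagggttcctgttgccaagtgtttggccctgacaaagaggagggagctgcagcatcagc
The common run TTCTAATTATATCC is 14 bases long. Searched on both strands, it was found in 4 of the 32851 promoters of the table (0.0122%), which are these 4. Because the run was chosen as the longest that these 4 promoters share, this count is not a test of its rarity. It starts 158 bases before the annotated start in *Myh4*, 160 bases before it in *Myh1*, 125 in *Myh2* and 54 in *Myh8*. TATAAAA follows it after 127 bases in *Myh4*, 128 in *Myh1* and 135 in *Myh2*, measured from first base to first base. It begins 31 bases before the annotated start in *Myh4* and 32 before it in *Myh1*, but 10 bases behind it in *Myh2*. TATAAAA is also found in the promoter of *Myh3*, 29 bases before the start, and is held by 5.48% of all promoters on either strand. The MEF2 box, the binding motif of the MEF2 factors of muscle, matched in *Myh4*, *Myh1* and *Myh8* (3.19% of all promoters). The CArG box of serum response factor matched in *Myh4* alone among the 8 genes (1.63% of all promoters), as did the E-box CAGCTG (16.3%), and the letters CATTCC matched in *Myh4*, *Myh1*, *Myh7* and *Myh6* (14.7%). These matches describe the letters in this window and were not tested as sites.

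The coding sequences are similar enough to bear on how reads were assigned. Over the aligned coding bases, *Myh7* and *Myh6* were 91.5% identical, *Myh1* and *Myh2* 91.0%, and *Myh4* and *Myh1* 90.1%, whereas *Myh7b* was between 68.5% and 71.6% identical to the others. A stretch of 161 bases is the same in *Myh4* (coding positions 3241 to 3401, counted from 1 at the A of the start codon, exons 23 to 25) and in *Myh1* (positions 3250 to 3410), and it is printed because a read inside it cannot be told apart between them:
*Myh4* and *Myh1*: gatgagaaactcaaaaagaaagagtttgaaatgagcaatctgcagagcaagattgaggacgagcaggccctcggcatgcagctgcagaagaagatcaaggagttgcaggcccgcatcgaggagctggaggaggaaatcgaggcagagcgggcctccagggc
A window of 60 aligned bases was chosen for the largest difference, 18 bases, between the most similar pair of the 4 adult chains. Capitals mark in *Myh4* the 30 columns that vary and in the others each base unlike *Myh4*. The window spans an exon boundary in all of the chains:
*Myh4*, chr11:67254103-67254493, exons 26 and 27: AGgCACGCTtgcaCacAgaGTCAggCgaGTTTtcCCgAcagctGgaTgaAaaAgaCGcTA
*Myh1*, chr11:67215944-67217499, exons 28 and 29: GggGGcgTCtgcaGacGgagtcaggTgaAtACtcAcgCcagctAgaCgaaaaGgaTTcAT
*Myh2*, chr11:67190410-67191383, exons 28 and 29: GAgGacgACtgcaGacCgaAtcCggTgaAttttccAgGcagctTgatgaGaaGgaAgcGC
*Myh7*, chr14:54978666-54978890, minus strand, exons 29 and 30: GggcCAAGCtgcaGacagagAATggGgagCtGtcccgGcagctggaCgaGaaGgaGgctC
Of all coding windows of 50 bases, 19.6% of those of *Myh4*, 27.9% of *Myh1*, 28.1% of *Myh2* and 23.9% of *Myh7* also occur in a transcript of another gene. At 100 bases the shares were 3.99%, 10.1%, 9.57% and 12.04%. *Myh7b* shared no window of either length, and its estimated counts were whole numbers in every mouse, to within 1e-09 of a count, while those of *Myh3* were fractional in 3 mice and those of *Myh4*, *Myh1*, *Myh2*, *Myh7*, *Myh8* and *Myh6* were fractional in 6 mice, as estimates that divide ambiguous reads among genes are. Between these close copies the division of reads is uncertain. Antisense genes overlap *Myh1*, *Myh2*, *Myh7* and *Myh6* in the annotation, and *Trpc4ap* overlaps the end of *Myh7b*. The libraries were stranded, but whether strand was used in counting is not given in the sources used here.

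A family of microRNAs known to act on fiber type genes lies in introns of 3 of the genes, mmu-miR-208a in *Myh6*, mmu-miR-208b in *Myh7* and mmu-miR-499 in *Myh7b*. The annotation also places *Mir6923*, which is not described further, within *Myh3* on the same strand. The RefSeq mature sequences of the family follow, with the seed (bases 2 to 8) in capitals:
mmu-miR-208a-3p, chr14:54949072-54949093, minus strand, intron 29 of *Myh6*: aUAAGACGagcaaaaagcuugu
mmu-miR-208b-3p, chr14:54975710-54975731, minus strand, intron 31 of *Myh7*: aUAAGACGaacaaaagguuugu
mmu-miR-499-5p, chr2:155622893-155622913, plus strand, intron 19 of *Myh7b*: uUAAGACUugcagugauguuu
The first pair shares the seed UAAGACG, and that of mmu-miR-499-5p is UAAGACU. The microRNAs themselves were not analysed here, and only their host genes have values.

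The levels of the 8 genes fell into an abundant group of 4 and a scarce group of 4. Per kilobase of coding length, the median over the 6 mice was 8258 CPM for *Myh4*, 1036 for *Myh1*, 378 for *Myh2* and 42.8 for *Myh7*. The order *Myh4*, *Myh1*, *Myh2*, *Myh7* was the same in every mouse, and the ranges of neighbors did not overlap. *Myh4* stood 7.97 times above *Myh1*, *Myh1* 2.74 times above *Myh2* and *Myh2* 8.82 times above *Myh7* by their medians. The scarce genes followed with medians of 0.490 CPM per kilobase for *Myh3*, 0.403 for *Myh8*, 0.374 for *Myh7b* and 0.238 for *Myh6*, and their ranges overlapped. *Myh3* was above *Myh8* in 4 of 6 mice and *Myh8* above *Myh7b* in 3 of 6, so these neighbors did not differ beyond their spread. *Myh7b* was above *Myh6* in 6 of 6 mice, 1.57 times by their medians, although their ranges over the mice overlapped. Together the 8 genes took 5.25% to 5.97% of all counts in a library, and the 4 scarce genes 0.0121% to 0.0179% of the heavy chain counts. *Myh4* ranked 3 among all genes by mean CPM.

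**Figure D1:**
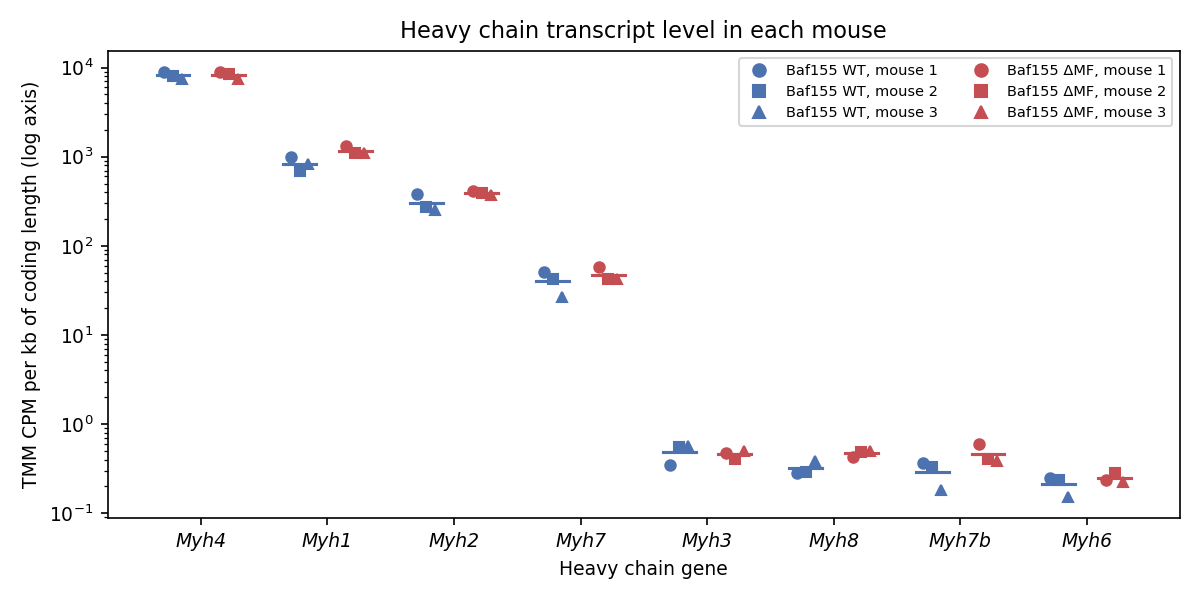
TMM CPM per kilobase of coding length (log axis) of the 8 heavy chain genes, with a point for each mouse (circle, square and triangle for mice 1, 2 and 3) and a line for the mean of 3 Baf155 WT (blue) and 3 Baf155 ΔMF (red) mice. *Myh4*, *Myh1*, *Myh2* and *Myh7* form separate steps, and *Myh3*, *Myh8*, *Myh7b* and *Myh6* overlap below 1.

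No member passed the test between genotypes at an adjusted p under 0.05, against 3 of 12116 genes tested (0.0248%). Without adjustment, *Myh1*, *Myh2* and *Myh8* had p under 0.05 and were higher in Baf155 ΔMF mice, as were 3.35% of the genes tested, while 4.6% were lower. In CPM, *Myh1*, *Myh8* and *Myh7b* were higher in all 3 Baf155 ΔMF mice than in all 3 Baf155 WT mice, a pattern found in 5.2% of the genes tested in this direction and in 5.57% in the other. The log2 fold change was above 0 for 7 of the 8 genes and for 49.8% of the genes tested, whose median was -0.00095. Among 2836 other tested genes with 5000 to 7500 exonic bases, the range of 6 members, 56.9% were above 0. Adjusted p-values of the members were between 0.601 and 0.987.

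*Myh4*, the glycolytic MyHC2b, had nearly equal means in the 2 genotypes. It was measured at 51920, 47303 and 43819 CPM in Baf155 WT mice and at 51888, 48771 and 43271 CPM in Baf155 ΔMF mice. The groups covered nearly the same range. The log2 fold change was 0.0089 (SE 0.14, adjusted p = 0.987), and its 95% confidence interval ran from -0.31 to 0.33, which spans 0.808-fold to 1.25-fold. Over the alternative fits it lay between -0.05 and 0.08, on either side of 0.

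*Myh1*, which encodes the MyHC2x of intermediate fast fibers, was the abundant member that differed most. Its values were 5731, 4034 and 4810 CPM in Baf155 WT mice and 7683, 6341 and 6466 CPM in Baf155 ΔMF mice. The lowest Baf155 ΔMF mouse lay above the highest Baf155 WT mouse. The fold change was 1.41 (log2 0.49, SE 0.15, 95% confidence interval 0.17 to 0.82), with an unadjusted p of 0.00672 and an adjusted p of 0.601 by edgeR. The adjusted p was 0.0885 with DESeq2 and 0.631 with limma-voom. Within the MS13 mice the log2 difference was 0.29.

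*Myh2*, the fast oxidative MyHC2a, had 2228, 1573 and 1483 CPM in Baf155 WT mice and 2404, 2276 and 2175 CPM in Baf155 ΔMF mice. Baf155 WT mouse 1 lay among the Baf155 ΔMF mice, and the other Baf155 WT mice lay below all of them. The log2 fold change was 0.38 (SE 0.15, 95% confidence interval 0.05 to 0.71, unadjusted p = 0.0294, adjusted p = 0.601 by edgeR). Within the MS13 mice it was 0.07.

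*Myh7*, the slow chain, was measured at 298, 249 and 156 CPM in Baf155 WT mice and at 333, 244 and 249 CPM in Baf155 ΔMF mice. The groups overlapped, and Baf155 WT mouse 3 stood below all other mice. The log2 fold change was 0.23 (SE 0.20, 95% confidence interval -0.21 to 0.68, adjusted p = 0.741 by edgeR), and within the MS13 mice it was -0.05. It was 0.010 without Baf155 WT mouse 3, 0.075 without Baf155 ΔMF mouse 1 and 0.44 without Baf155 WT mouse 1. In whole muscle RNA, a different number of fibers of a type and a different amount of RNA per fiber cannot be told apart. The same holds for the other isoforms.

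Leaving out Baf155 WT mouse 1 moved *Myh1* and *Myh2* past the threshold, with log2 fold changes of 0.63 (adjusted p = 0.00789) and 0.58 (adjusted p = 0.00346) in the same edgeR test. In that fit 955 of 12288 genes (7.77%) were called. The remaining Baf155 WT mice then all carry MS15 and no Baf155 ΔMF mouse does, so that title prefix and genotype cannot be told apart there. With any other mouse left out, neither gene was called, and their log2 fold changes were between 0.38 and 0.54 for *Myh1* and between 0.26 and 0.41 for *Myh2*.

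**Figure D2:**
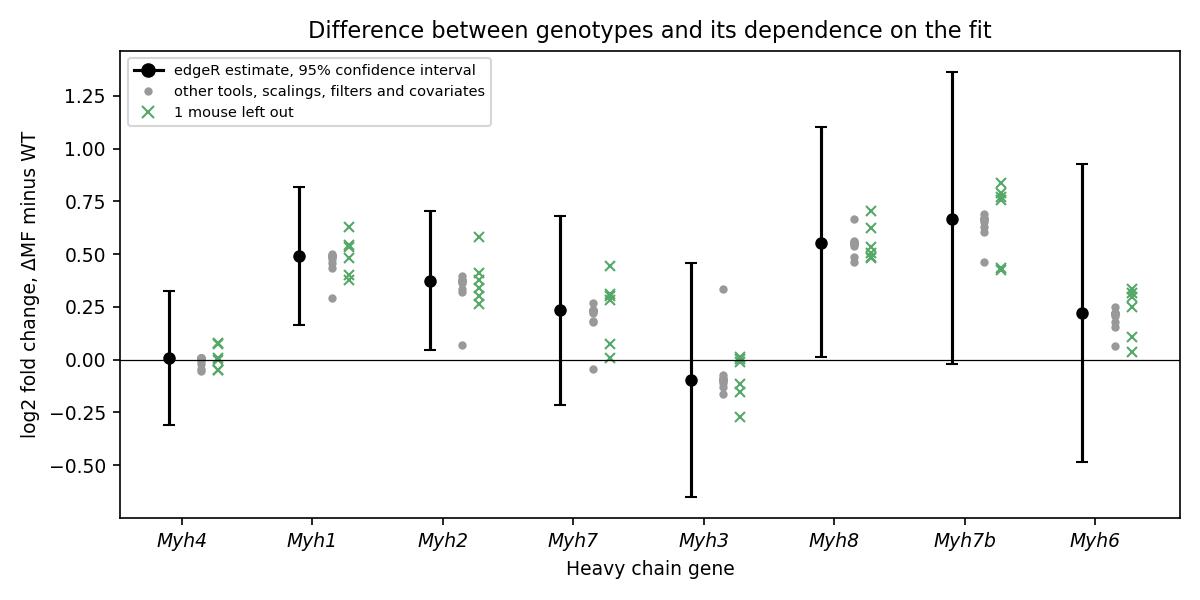
Log2 fold change, Baf155 ΔMF minus Baf155 WT, for each heavy chain gene, with the edgeR estimate over 6 mice and its 95% confidence interval (black), the other tools, scalings, filters and covariates (gray points) and the fits with 1 mouse left out (green crosses). The interval of *Myh4* is centered near 0, those of *Myh1*, *Myh2* and *Myh8* lie above 0 before adjustment for the number of genes, and the estimates of *Myh3*, *Myh4* and *Myh7* fall on either side of 0.

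The developmental and minor chains had few counts, and those of *Myh8* and *Myh6* were fractional estimates in 6 mice. *Myh8*, the perinatal chain, was measured at 1.65, 1.68 and 2.23 CPM in Baf155 WT mice and at 2.46, 2.80 and 2.92 CPM in Baf155 ΔMF mice, from 17 to 27 counts per mouse. The groups did not overlap, and the log2 fold change was 0.55 (SE 0.25, unadjusted p = 0.0461, adjusted p = 0.621 by edgeR) and 0.67 within the MS13 mice. *Myh7b* had 2.14, 1.91 and 1.07 CPM against 3.52, 2.39 and 2.22 CPM, from 12 to 33 counts. Here too every Baf155 ΔMF mouse lay above every Baf155 WT mouse, with a log2 fold change of 0.67 (SE 0.31, adjusted p = 0.622 by edgeR). *Myh3*, the embryonic chain, had 2.04, 3.21 and 3.30 CPM against 2.78, 2.39 and 2.92 CPM. Its groups overlapped (log2 fold change -0.10, SE 0.25, adjusted p = 0.925 by edgeR). *Myh6*, the heart chain, had 1.46, 1.38 and 0.892 CPM against 1.39, 1.66 and 1.29 CPM, which also overlapped (log2 fold change 0.22, SE 0.32, adjusted p = 0.849 by edgeR). The 95% confidence intervals ran from 0.01 to 1.1 for *Myh8*, from -0.02 to 1.36 for *Myh7b*, from -0.65 to 0.46 for *Myh3* and from -0.48 to 0.93 for *Myh6*, so that smaller differences were not detectable at this depth. Within the MS13 mice the log2 difference was 0.46 for *Myh7b*, 0.34 for *Myh3* and 0.07 for *Myh6*. The log2 fold change of *Myh6* was 0.035 without Baf155 WT mouse 3, 0.11 without Baf155 ΔMF mouse 2 and 0.33 without Baf155 WT mouse 1, and that of *Myh7b* was 0.43 without Baf155 WT mouse 3 and without Baf155 ΔMF mouse 1.

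Each adult chain was also expressed as its share of the summed counts of *Myh4*, *Myh1*, *Myh2* and *Myh7* in a mouse. A share does not depend on how libraries are scaled. *Myh4* made up 86.3%, 89.0% and 87.2% in Baf155 WT mice and 83.3%, 84.6% and 83.0% in Baf155 ΔMF mice. All Baf155 ΔMF mice were below all Baf155 WT mice, with means of 87.5% ± 1.38 and 83.6% ± 0.885 (SD, n = 3 each) and a difference of -3.86 percentage points. *Myh1* made up 9.52%, 7.59% and 9.57% in Baf155 WT mice and 12.3%, 11.0% and 12.4% in Baf155 ΔMF mice. The order was the opposite, with 8.89% ± 1.13 against 11.9% ± 0.787 (SD, n = 3 each), or 3.02 points more. *Myh2* made up 3.70%, 2.96% and 2.95% against 3.86%, 3.95% and 4.17%. These values did not overlap either, and they differed by 0.788 points. *Myh7* made up 0.495%, 0.468% and 0.310% against 0.534%, 0.424% and 0.477%, which overlapped. The slow and fast oxidative chains *Myh2* and *Myh7*, summed, made up 4.20%, 3.43% and 3.26% against 4.39%, 4.37% and 4.65%, a difference of 0.842 points without overlap.

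With 3 mice against 3, a two-sided exact permutation test over the 20 assignments cannot give a p below 0.10. The exact permutation p was 0.10 for *Myh4*, *Myh1*, *Myh2* and *Myh2* plus *Myh7* and 0.60 for *Myh7*, or 0.125 and 0.60 after Benjamini-Hochberg adjustment over the 5 shares. The shares sum to 100%, so that the lower share of *Myh4* and the higher shares of *Myh1* and *Myh2* are not independent results. The 95% Wilson interval of a share was at most 0.221 points wide for *Myh4*, 0.193 for *Myh1*, 0.117 for *Myh2* and 0.0404 for *Myh7*, less than the SD between mice of either genotype. It treats every count as an independent read, although estimates divide ambiguous reads and reads were not marked by molecule. The interval can therefore be too narrow even for counting error, and it leaves out all other error.

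Ratios between isoforms in the same mouse were compared next. *Myh4* exceeded *Myh1* by 9.06, 11.7 and 9.11 times in Baf155 WT mice and by 6.75, 7.69 and 6.69 times in Baf155 ΔMF mice. Its ratio to *Myh2* was 23.3, 30.1 and 29.5 against 21.6, 21.4 and 19.9. Neither ratio overlapped between genotypes. The ratio of *Myh1* to *Myh2* was 2.57, 2.56 and 3.24 against 3.20, 2.79 and 2.97, and that of *Myh2* to *Myh7* 7.48, 6.33 and 9.50 against 7.23, 9.31 and 8.75, both with overlap.

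Within the MS13 mice, the share of *Myh1* was 9.52% in the Baf155 WT mouse and 12.3% and 11.0% in the Baf155 ΔMF mice, a difference of 2.14 points, and that of *Myh4* differed by -2.33 points. The share of *Myh2* differed by 0.200 points there, and that of *Myh2* plus *Myh7* by 0.184. With 1 mouse left out, the difference in *Myh1* lay between 2.36 and 3.47 points and that in *Myh4* between -4.46 and -3.10 points. Dividing the counts by exon length gave -3.64 points for *Myh4*, 2.92 for *Myh1* and 0.682 for *Myh2*. Coding lengths are nearly equal among the 4 adult chains, so dividing by them could hardly move a share. It gave -3.85 points for *Myh4* and 3.01 for *Myh1*.

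**Figure D3:**
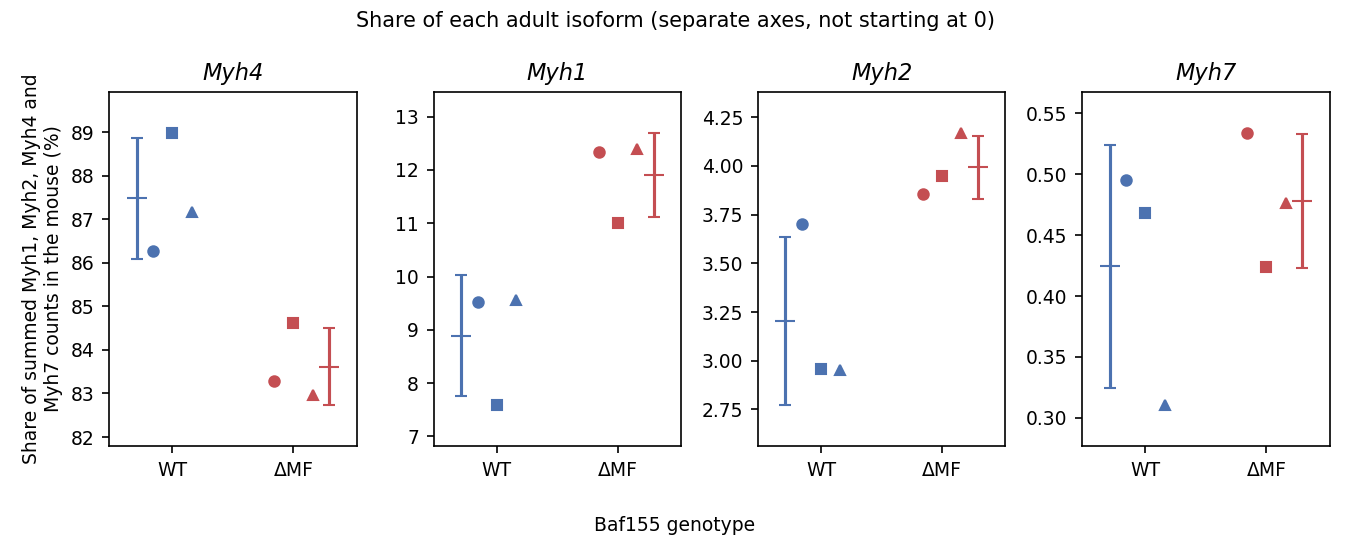
Share of each adult isoform in the summed *Myh4*, *Myh1*, *Myh2* and *Myh7* counts of a mouse (percent, separate axes that do not start at 0), for Baf155 WT (blue) and Baf155 ΔMF (red) mice, with circle, square and triangle for mice 1, 2 and 3 and bars for mean and SD (n = 3). Shares of *Myh4* are lower and those of *Myh1* and *Myh2* higher in every Baf155 ΔMF mouse, and *Myh7* overlaps.

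Other cell types also varied among the mice. The leukocyte markers *Ptprc*, *Adgre1*, *Cd68*, *Csf1r* and *Cd3e* summed to 37.0, 109 and 88.5 CPM in Baf155 WT mice and to 35.3, 35.5 and 56.0 CPM in Baf155 ΔMF mice, with *Cd3e* between 0.0972 and 0.468 CPM. The 4 tested markers were lower in Baf155 ΔMF mice at an unadjusted p under 0.05 by edgeR, and none was called. At that p, 4.6% of all genes tested were lower and 3.35% higher. Within the MS13 mice the log2 difference was 0.19 for *Ptprc*, -0.16 for *Adgre1*, -0.22 for *Cd68* and -0.13 for *Csf1r*. Baf155 WT mice 2 and 3, which were highest for these markers, were the lowest mice for *Myh1* and *Myh2* in CPM. Endothelium markers summed to 249, 192 and 200 CPM against 255, 273 and 251 CPM, with 2 of 4 higher at an unadjusted p under 0.05. Blood markers summed to 487 to 945 CPM against 282 to 618 CPM, adipocyte markers to 23.7 to 37.6 against 16.8 to 25.5, and fibroblast markers to 1114 to 1527 against 996 to 1366 CPM. Satellite cell markers (21.2 to 24.2 CPM over all mice), Schwann cell and nerve markers (57.9 to 70.7 CPM) and smooth muscle markers (111 to 144 CPM) overlapped in their sums. None of these markers was called, and their part in the heavy chain values was not tested. A share among heavy chains leaves out RNA of cells that make none of them.

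Over all 6 mice, the other slow-fiber genes had log2 fold changes of either sign, and most of the fast-fiber genes were below 0. Of 12 slow-fiber genes, none was called, 5 had a positive log2 fold change, against 49.8% of the genes tested, and the median was -0.01. Myoglobin (*Mb*), the oxygen store of oxidative fibers, had 2798, 2265 and 2385 CPM in Baf155 WT mice and 2865, 2923 and 2985 CPM in Baf155 ΔMF mice, without overlap (log2 fold change 0.24, adjusted p = 0.622 by edgeR, and 0.05 within the MS13 mice). *Myoz2*, a calcineurin-binding Z-disc protein of slow fibers, had the smallest p of the list (log2 fold change 0.31, unadjusted p = 0.0212, adjusted p = 0.601 by edgeR, and 0.11 within the MS13 mice). The slow calcium pump *Atp2a2* (0.08) and the slow light chain *Myl2* (-0.14) had log2 fold changes of either sign.

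Of 12 fast-fiber genes none was called, and the median log2 fold change was -0.11, with 1 above 0, against 49.8% of the genes tested. The fast troponin T *Tnnt3* (-0.19), alpha-tropomyosin *Tpm1* (-0.20) and the calcium buffer parvalbumin *Pvalb* (-0.25, unadjusted p = 0.101, adjusted p = 0.635 by edgeR, and 0.06 within the MS13 mice) had log2 fold changes below 0, and the fast calcium pump *Atp2a1* (0.09) above it. The median of the list was 0.05 in the fit that included the title prefix. The sum of fast-fiber genes was 99530, 110403 and 121069 CPM in Baf155 WT mice and 99198, 103589 and 99100 CPM in Baf155 ΔMF mice, so the high values were again those of Baf155 WT mice 2 and 3.

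**Figure D4:**
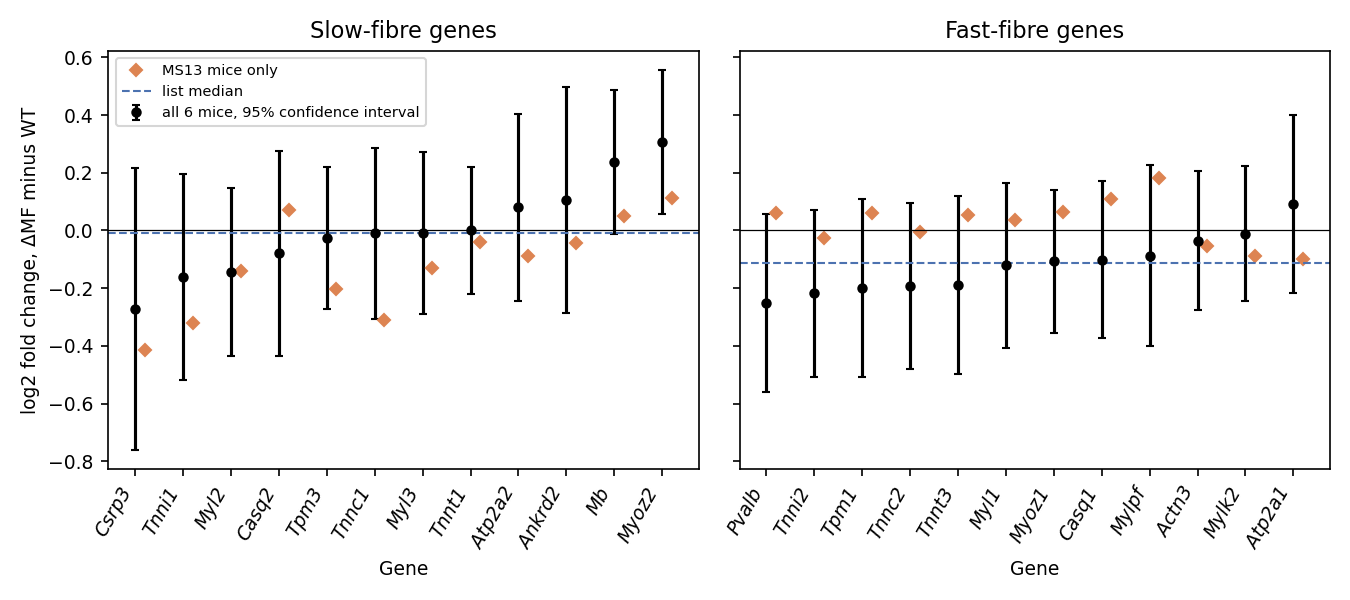
Log2 fold change, Baf155 ΔMF minus Baf155 WT, of 12 slow-fiber and 12 fast-fiber genes, with the edgeR estimate and its 95% confidence interval over 6 mice (black), the estimate within the MS13 mice (orange diamonds) and the list median (dashed line, -0.01 and -0.11). Every interval but that of *Myoz2* includes 0, and 8 fast-fiber genes have the opposite sign within MS13.

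Proteins that assemble with the heavy chains were not called either. Among myosin-binding and M-band proteins, 11 of 13 were tested and the median log2 fold change was 0.16. Titin (*Ttn*), the giant ruler of the sarcomere, had 81290, 47541 and 37561 CPM against 85257, 75257 and 62959 CPM, with Baf155 WT mouse 1 among the Baf155 ΔMF mice (log2 fold change 0.43, adjusted p = 0.656 by edgeR, and -0.02 within the MS13 mice). Myosin-binding protein H (*Mybph*) was the member of smallest p, at 63.4, 64.6 and 91.6 CPM against 54.5, 42.9 and 52.0 CPM, without overlap (log2 fold change -0.56, SE 0.15, unadjusted p = 0.00326, adjusted p = 0.601 by edgeR, and -0.38 within the MS13 mice). The fast myosin-binding protein C *Mybpc2* had a log2 fold change of -0.13 and the M-band protein *Myom1* of 0.12.

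Of 8 myosin chaperones and co-chaperones none was called, and the median log2 fold change was -0.09. *Hsp90aa1* had the smallest p (99.1, 93.7 and 127 CPM against 70.3, 90.9 and 80.3 CPM, log2 fold change -0.40, unadjusted p = 0.0106, adjusted p = 0.601 by edgeR, and -0.30 within the MS13 mice). *Hsp90ab1* (-0.13), the muscle methyltransferase and myosin chaperone *Smyd1* (-0.06) and the small heat shock protein *Cryab* (0.07) had smaller log2 fold changes. Of the other myosin heavy chains, 5 of 6 were tested and none was called, with log2 fold changes of 0.08 for the non-muscle chain *Myh9*, -0.12 for the non-muscle chain *Myh10*, 0.11 for the smooth muscle chain *Myh11*, -0.12 for *Myh13*, the neighbor of *Myh8*, and 0.22 for the non-muscle chain *Myh14* (-0.17 within the MS13 mice).

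Among 25 regulators of fiber type none was called. The log2 fold change was above 0 for 19 of them, against 49.8% of the genes tested, with a median of 0.10. An unadjusted p under 0.05 by edgeR was found for 3 higher and 3 lower in Baf155 ΔMF mice. Of all genes tested, 3.35% were higher and 4.6% lower at that p. *Rcan1*, an inhibitor of calcineurin whose transcript rises with calcineurin activity, had the smallest p, at 136, 150 and 138 CPM in Baf155 WT mice and 69.0, 98.7 and 89.9 CPM in Baf155 ΔMF mice. The groups did not overlap (log2 fold change -0.72, SE 0.12, unadjusted p = 0.000129, adjusted p = 0.173 by edgeR), and the difference was -0.69 within the MS13 mice. *Mef2c*, a MEF2 factor, had 712, 588 and 626 CPM against 802, 740 and 735 CPM, without overlap (log2 fold change 0.24, adjusted p = 0.611 by edgeR, and 0.12 within the MS13 mice). The glycolytic fiber factor *Tbx15* had a log2 fold change of -0.10 (SE 0.09) and the slow gene repressor *Sox6* one of 0.22 (SE 0.12), and within the MS13 mice these were 0.02 and 0.06.

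*Maf*, a transcription factor, was picked out of this list after its values were seen. It had 138, 148 and 144 CPM in Baf155 WT mice and 118, 117 and 108 CPM in Baf155 ΔMF mice. The groups did not overlap (log2 fold change -0.32, SE 0.09, adjusted p = 0.601 by edgeR), and the difference was -0.23 within the MS13 mice.

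Of 13 genes of immature or denervated muscle, 10 were tested, none was called, and the median log2 fold change was -0.30. The embryonic chain *Myh3* (-0.10) had the same sign and the perinatal chain *Myh8* (0.55, from 17 to 27 counts per mouse) the opposite one. *Actc1*, the cardiac actin of immature fibers, had 55.4, 42.7 and 104 CPM against 34.8, 30.3 and 43.9 CPM (log2 fold change -0.89, adjusted p = 0.601 by edgeR, and -0.77 within the MS13 mice). *Myl4*, the embryonic light chain, had 4.57, 5.59 and 5.53 CPM against 3.84, 3.32 and 2.81 CPM, without overlap (log2 fold change -0.65, unadjusted p = 0.00678, adjusted p = 0.601 by edgeR, and -0.35 within the MS13 mice). *Myod1*, the myogenic factor, had a log2 fold change of -0.52 and 0.04 within the MS13 mice, and the acetylcholine receptor subunit *Chrna1* one of 0.07.

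The genes whose log2 CPM followed each adult isoform most closely over the 6 mice, among 7711 genes with a mean of at least 10 CPM, were different for each isoform. For *Myh1* these were *Morc2a*, *Mef2c*, *Foxo1*, *Zfp488* and *Kif21a*, with Pearson r from 0.981 to 0.995. For *Myh2* they were *Pank1*, *Hif1an*, *Ralgapb*, *Ubap2* and *Jarid2* (r from 0.996 to 0.998), and for *Myh4* *Prune*, *Mitf*, *Mbnl1*, *Usp14* and *Snrnp200* (0.983 to 0.991). For *Myh7* they were *Prkdc*, *Bcl2*, *Dip2c*, *Nup210* and *Tnik* (0.987 to 0.994). These values describe 6 libraries that differ in genotype and title prefix, and the genes were selected for these values among all that were compared. *Hif1an*, for example, had 123, 80.8 and 75.0 CPM in Baf155 WT mice and 128, 121 and 116 CPM in Baf155 ΔMF mice, with Baf155 WT mouse 1 among the latter as for *Myh2*. Over both lists of fiber type genes, the highest and the lowest r of *Myh4* were with the myosin light chain kinase *Mylk2* (0.971) and the fast light chain *Mylpf* (-0.750). Those of *Myh1* were with *Mb* (0.906) and the fast troponin I *Tnni2* (-0.833), and those of *Myh2* with the same genes (0.933 and -0.982). *Myh7* had its highest r with *Atp2a2* (0.977) and its lowest with the fast light chain *Myl1* (-0.968).

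Exon length, taken over the union of all annotated exons of a gene, moved with the fold changes in these libraries. Over 12095 tested genes with an annotated length, the Spearman correlation between log2 fold change and exon length was 0.307 across genes, which are not independent replicates. The 2836 other genes with 5000 to 7500 exonic bases, the range of 6 members, had a median log2 fold change of 0.03, and 6.59% of them were higher in Baf155 ΔMF mice without overlap. With the trend removed from each mouse, the log2 fold changes were 0.46 for *Myh1*, 0.34 for *Myh2* and -0.02 for *Myh4*. The exon length was 6016 bases for *Myh4*, 6353 for *Myh1*, 7137 for *Myh2* and 8616 for *Myh7*, and the part of length in their shares was not tested.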

How the data were processed

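Muscle RNA of 6 mice was sequenced by the authors from stranded total RNA libraries on an Illumina sequencer. The submitters' processing notes name CASAVA 1.8.2, cutadapt 1.10, Bowtie2 2.2.7, TopHat2 2.1.1, RSEM 1.2.30 and limma, with mm10 and GRCm38 as genome. The authors deposited estimated counts per gene symbol, without normalization. A deposited column with the sum over mice was not used. Libraries held 8426022 to 12469335 counts, and the value columns of all 6 mice were used.

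Estimated counts were rounded, filtered by filterByExpr (12116 genes kept) and compared with the quasi-likelihood test of edgeR 4.0.16 after TMM scaling, with Benjamini-Hochberg adjustment over all genes tested. Isoform shares were compared with exact permutation tests (SciPy 1.17.1). Alternative fits used DESeq2 1.42.0 or limma-voom 3.58.1, changed the scaling, the filter or the dispersion estimate, added the title prefix, or left out a mouse. The removal of the length trend, the shares per coding length and the list medians under other fits were chosen after seeing the data. The fit was tested on simulated data, where 173 of 200 genes changed 2-fold were recovered among 12116 genes, with 13 false calls. The simulated counts held no differences by title prefix or exon length. The planted change was larger than any estimate for a member (0.936-fold for *Myh3* to 1.59-fold for *Myh7b*). The recovered share therefore does not show how often changes of the members' size would be called. Coding sequences were aligned with MAFFT 7.526. Loci are from GENCODE M21, which may not be the annotation of the counts. All 8 members matched RefSeq promoters by symbol.

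Every member is named. Cell type markers are given mainly as sums. From each other gene list, the text gives the 3 genes of highest mean CPM, every called gene and the gene of smallest p. For each adult isoform it gives the 5 genes of most similar pattern. The values of 1 gene of the lists are not reported here. The members and lists were chosen with earlier results of these data known. Nothing in the labels says more than that mice are separate samples, and p-values measure the spread between them.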

Additional observations from a re-analysis of the deposited data

How the results depend on the processing

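The number of genes called, 3 with all mice, was 23 with DESeq2, 5 with limma-voom, 17 without a filter on low counts, 16 with the title prefix as covariate, 7 with the length trend removed and 0 to 955 with 1 mouse left out, the highest without Baf155 WT mouse 1. It was 0 by edgeR without Baf155 WT mouse 2 and without Baf155 ΔMF mouse 2, where 451 and 568 genes had an unadjusted p under 0.05. Members called were 0 in every fit other than that one, which called 2, *Myh1* and *Myh2*. With 1 mouse left out, the log2 fold change of *Smarcc1* lay between -1.59 and -1.36, and its adjusted p rose past the threshold without Baf155 WT mouse 2 (0.0616) and without Baf155 ΔMF mouse 1 (0.0533) or 2 (0.0678). *Myh4* turned to -0.0047 with upper-quartile scaling, -0.053 with library size only, -0.045 with the title prefix, -0.022 with the length trend removed and -0.050 to 0.081 with 1 mouse left out. *Myh7* turned to -0.046 and *Myh3* to 0.34 with the title prefix, and *Myh3* lay between -0.27 and 0.015 with 1 mouse left out. The median of fast-fiber genes was 0.05 with the title prefix. Library size only moved the median of all genes tested to -0.06. The causes were not tested. Within the MS13 mice the share of *Myh4* differed by -2.33 points, that of *Myh2* by 0.200 and that of *Myh2* plus *Myh7* by 0.184, in each case less than over all mice.

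With the title prefix in the fit, 1 Baf155 WT mouse is set against 2 Baf155 ΔMF mice. Depth limits *Myh3*, *Myh8*, *Myh7b* and *Myh6*, at 10 to 42 counts per mouse. For *Myh8* and *Myh6*, 22.7% and 23.8% of coding windows of 50 bases also occur in another gene. The part of reads from the abundant chains in these counts was not tested. With 1 mouse left out, the exact permutation test of a share cannot give a p below 0.20. No paired analysis was possible because the numbers in the titles do not pair mice of the 2 genotypes and the title prefix MS13 alone holds both.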
